A study of Caenorhabditis elegans with 8 samples.

Results

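The response of *C. elegans* L4 hermaphrodites to growth at 25ºC was measured as a single temperature effect over *mut-16* mutants and wild-type. All 8 L4 mRNA-seq libraries of the series entered the comparison, the 4 grown at 25ºC being set against the 4 grown at 20ºC. The groups were *mut-16(pk710)* mutants at 25ºC, wild-type (N2) animals at 25ºC, *mut-16(pk710)* mutants at 20ºC and wild-type (N2) animals at 20ºC, with 2 biological replicates each. MUT-16 is the scaffold protein of the *mutator* complex, which amplifies small interfering RNAs. Each library came from a synchronized population of whole animals, grown at its temperature from the L1 stage and collected at the L4 stage, which took about 39 h at 25ºC and about 56 h at 20ºC. Temperature and time on the plate therefore changed together, and their effects cannot be told apart.

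At 25ºC *C. elegans* develops faster and is close to the upper limit of its fertile range. Acute heat shock in the worm is answered by HSF-1, the transcription factor that switches on small heat shock proteins and Hsp70 chaperones, while prolonged growth at a warm temperature also changes membrane lipids, secreted defence proteins and the cuticle. The cuticle is an extracellular coat of cross-linked collagens that the epidermis makes anew for each larval stage and for the adult, with collagen genes transcribed in waves within every moult cycle. The L4 stage ends with the moult to the adult, and it is also the stage in which hermaphrodites make sperm.

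The libraries held between 9914054 and 13227929 expected counts (estimated reads per gene), of which ribosomal RNA took between 9.83% and 14.3%. The *mut-16* transcript had between 55 and 105 expected counts in the *mut-16* libraries and between 229 and 340 in the wild-type libraries, and it did not differ between the temperatures (log2(fold change) 0.00, adjusted p = 0.989). Marker genes of the tissues of a whole hermaphrodite were present, with 21 of 21 neuronal, 21 of 21 body-wall muscle, 27 of 27 intestinal and 27 of 27 oocyte genes passing the filter on low counts, and 9 of 15 pharyngeal genes. Because RNA came from whole animals, more cells of a type and more RNA per cell cannot be told apart.

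Growth at 25ºC up-regulated 658 genes and down-regulated 275 genes over both genotypes, which is 4.71% and 1.97% of the 13972 genes tested. Called genes had a log2(fold change) above 1 or below −1 and passed 0.05 after Benjamini-Hochberg adjustment over all genes, in edgeR's quasi-likelihood test with genotype as a covariate. Of the up-regulated genes, 641 were protein coding and 14 were pseudogenes, and of the down-regulated genes 261 were protein coding and 13 were pseudogenes. The changes were mostly moderate, with 163 up-regulated and 41 down-regulated genes beyond a log2(fold change) of 2 and with 46 and 6 beyond 3. Up-regulated genes made up 70.5% of the called genes, and 52.2% when libraries were scaled by their total counts alone, under which all genes had a median of −0.17 on the log2 scale, against −0.01 with TMM factors (scaling factors that discount the most changed genes). Without a threshold on the fold, 1455 genes (10.4%) were higher and 958 genes (6.86%) were lower at 25ºC.

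The called genes moved the same way in each genotype in most cases. Among the up-regulated genes, 651 (98.9%) had a higher estimate at 25ºC in *mut-16* mutants and in wild-type, and 627 had both 25ºC libraries above both 20ºC libraries within each genotype, an arrangement found for 15.2% of all genes tested. Among the down-regulated genes, 270 (98.2%) were lower in both genotypes, and 260 had both 25ºC libraries below both 20ºC libraries within each genotype, against 12.4% of all genes tested. These genes were selected by the same 8 libraries, so the counts describe the response and do not test it. The median log2(fold change) of the up-regulated genes was 1.5 in *mut-16* mutants and 1.53 in wild-type, and that of the down-regulated genes was −1.15 in *mut-16* mutants and −1.63 in wild-type. By estimate alone, 459 of the up-regulated and 133 of the down-regulated genes passed a log2(fold change) of 1 in each genotype.

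Tested within each genotype, heat stress up-regulated 638 genes (4.57%) in *mut-16* mutants and 740 genes (5.30%) in wild-type, and 353 genes were up-regulated in both, which is 55.3% of the first list and 47.7% of the second. It down-regulated 252 genes (1.80%) in *mut-16* mutants and 585 genes (4.19%) in wild-type, with 90 genes in common, which is 35.7% of the first list and 15.4% of the second. Over all genes tested, the log2(fold change) in *mut-16* mutants and in wild-type had a Pearson correlation of 0.46 across genes, and of 0.60 over the 8058 genes with a mean log2 CPM (counts scaled to a common library size) of at least 3. The contrasts come from different libraries, but genes are not independent replicates. A difference between the genotypes in the size of the heat effect passed an adjusted p of 0.05 for 431 genes (3.08%), 89 of them among the called genes. Of the called genes with such an interaction, the larger effect was in wild-type for 39 of 53 up-regulated and 34 of 36 down-regulated genes. The count of 431 depended on single libraries. It was 1093 if wild-type 20ºC replicate 1 was left out, 477 if wild-type 20ºC replicate 2 was, and between 124 and 246 if any of the other 6 was.

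**Figure D1:**
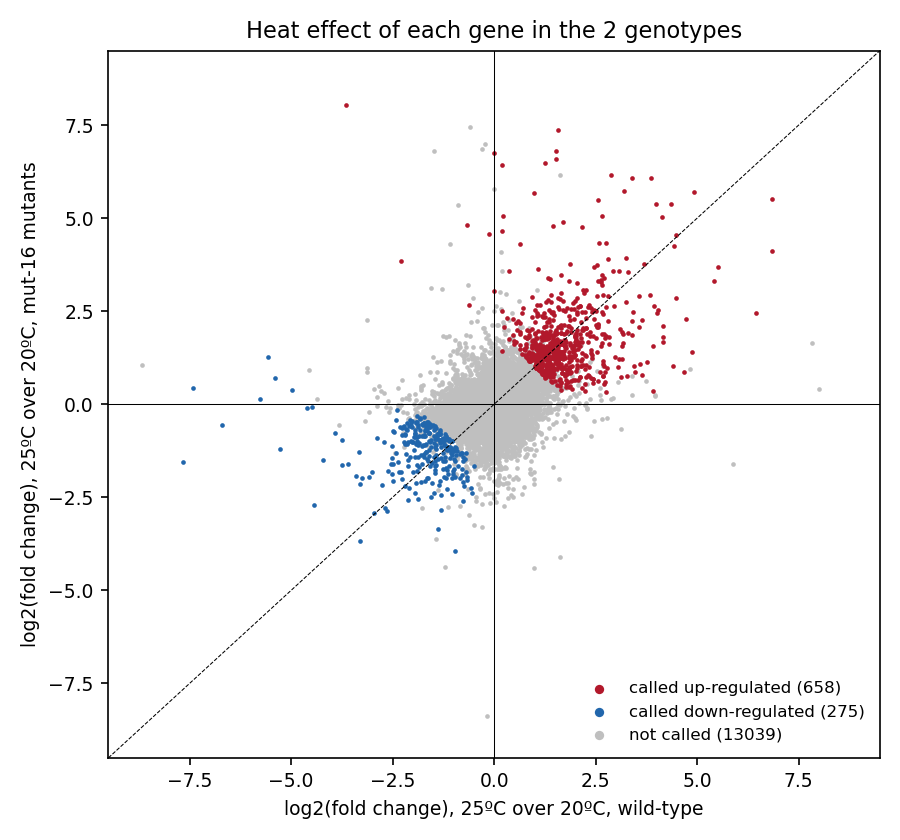
Log2(fold change) of each of the 13972 genes at 25ºC over 20ºC in wild-type (x axis) and in *mut-16* mutants (y axis), with 658 genes called up-regulated in red, 275 called down-regulated in blue and the others in grey, and the line of equal effect dashed. Called genes lie mostly in the quadrants of shared sign, and 12 called genes lie outside them.

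Cuticle collagens led the up-regulated genes. Of the 15 genes with the largest increase whose log2 CPM averaged 3 or more, 11 were collagens of the *col* family, and *col-140* (chromosome V from 5835855 to 5836834 in WBcel235) shows the pattern. It had 187 and 175 CPM in *mut-16* mutants and 487 and 332 CPM in wild-type at 25ºC, against 15.3 and 14.9 CPM in *mut-16* mutants and 57.1 and 49.6 CPM in wild-type at 20ºC. All 4 libraries at 25ºC lay above all 4 at 20ºC, and the increase was 9.47-fold, a log2(fold change) of 3.24 ± 0.168 (standard error, edgeR adjusted p = 3.95e-07). Among these 11, the largest increases were those of *col-7* (log2(fold change) 5.13, standard error 0.488), *col-62* (4.51, 0.317) and *col-119* (4.40, 0.318), which had at most 39 expected counts in any 20ºC library. *col-81*, *col-179*, *col-91*, *col-129*, *col-178*, *col-124* and *col-139* rose by between 2.94 and 3.56. The rarest of the named collagens, *col-8*, had between 1 and 5 expected counts in the 20ºC libraries, so its log2(fold change) of 4.48 rests on few reads.

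Over the whole *col* family, 75 of the 125 tested members (60%) were up-regulated and 3 (2.40%) were down-regulated, beside 4.71% and 1.97% of all genes. A further 33 members did not pass the filter on low counts. The median log2(fold change) of the tested members was 1.23, a 2.35-fold increase, and −0.01 for all genes tested. Within the 75 up-regulated members the log2(fold change) ran between 1.01 and 5.13 with a median of 1.89, and 73 of them had both 25ºC libraries above both 20ºC libraries in each genotype. The median over the family was 1.26 in *mut-16* mutants and 1.25 in wild-type, yet 18 of the 125 members had an interaction, beside 3.08% of all genes, 11 of them with the more positive effect in *mut-16* mutants and 7 in wild-type. Summed over the family, the level was 38930 and 36940 CPM in *mut-16* mutants and 58410 and 53180 CPM in wild-type at 25ºC, against 16570 and 16250 CPM in *mut-16* mutants and 23220 and 21510 CPM in wild-type at 20ºC. The family was thus lower in *mut-16* mutants than in wild-type at each temperature in every library, and higher at 25ºC in both. *col-19*, known as a collagen of the adult cuticle and picked here after its values were seen, had 34 and 39.6 CPM in *mut-16* mutants and 114 and 67.4 CPM in wild-type at 25ºC, against 5.56 and 5.6 CPM in *mut-16* mutants and 25.9 and 20.8 CPM in wild-type at 20ºC. Its temperatures did not overlap within a genotype, and it rose 4.9-fold (log2(fold change) 2.29, adjusted p = 1.24e-05). The 3 members that fell, named after their values were seen, were *col-47* (−1.45), *col-132* (−1.37) and *col-149* (−1.08), and *col-132* and *col-149* were at −0.58 and −0.32 in *mut-16* mutants and at −2.21 and −1.89 in wild-type, with interaction adjusted p of 0.0322 and 0.000745. The call of *col-149* was lost without either wild-type library at 25ºC (adjusted p = 0.0512 without replicate 1 and 0.0503 without replicate 2). Collagen sequences are alike, and 80.8% of the tested members had estimated counts that were not whole (by over 0.001), against 16% of all genes, so reads may have been divided among members.

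**Figure D2:**
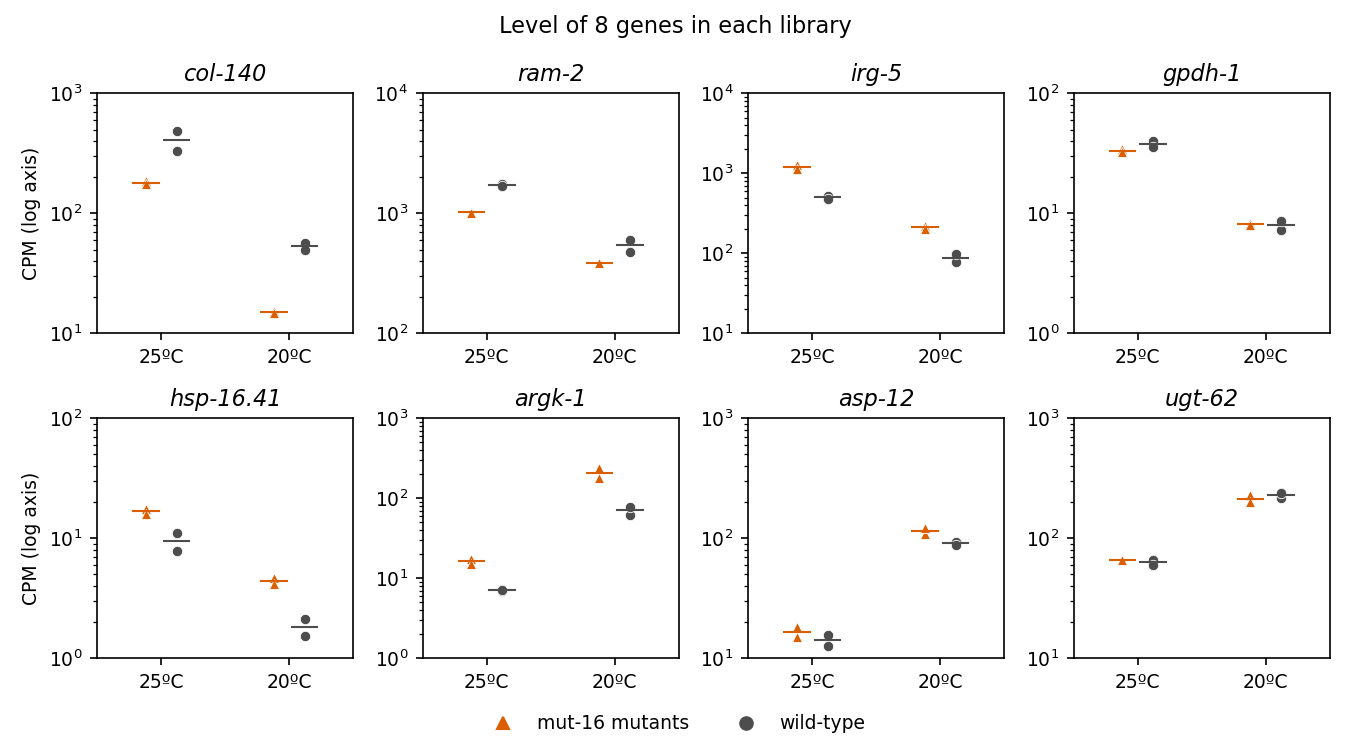
CPM of 8 genes in each library on a log axis, at 25ºC (left) and at 20ºC (right), with triangles for *mut-16* mutants, circles for wild-type and bars for the mean of 2 replicates. In each of the 5 genes of the first group (*col-140*, *ram-2*, *irg-5*, *gpdh-1* and *hsp-16.41*) all 25ºC libraries lie above all 20ºC libraries, and in *argk-1*, *asp-12* and *ugt-62* all lie below.

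The collagens known for their effect on body shape divided into groups. Their list of 21 was split after the values had been seen, into the 6 collagens of the annular furrows (*dpy-2*, *dpy-3*, *dpy-7*, *dpy-8*, *dpy-9* and *dpy-10*), which are transcribed early in each moult cycle, and the other 15. Of the other 15, 5 (33.3%) were up-regulated and none was down-regulated, beside 4.71% and 1.97% of all genes, with a median of 0.48. *ram-2*, a collagen required for the shape of the male rays, had 1038 and 1008 CPM in *mut-16* mutants and 1773 and 1685 CPM in wild-type at 25ºC, against 387 and 384 CPM in *mut-16* mutants and 606 and 475 CPM in wild-type at 20ºC. Its 25ºC libraries did not overlap with its 20ºC libraries, and it rose 2.91-fold, a log2(fold change) of 1.54 ± 0.113 (standard error, edgeR adjusted p = 2.63e-06). *bli-6*, *dpy-4*, *dpy-5* and *dpy-13* rose by 1.11, 1.08, 1.05 and 1.05 on the log2 scale. In contrast, none of the 6 furrow collagens passed the threshold on the fold, but all 6 were lower at 25ºC at an adjusted p of at most 0.05, beside 6.86% of all genes, with a median log2(fold change) of −0.85. *dpy-2* had 75.9 and 79.2 CPM in *mut-16* mutants and 30.7 and 40.4 CPM in wild-type at 25ºC, against 98.4 and 96.3 CPM in *mut-16* mutants and 106 and 1.1e+02 CPM in wild-type at 20ºC. All 4 of its 25ºC libraries were below its 20ºC libraries, yet the log2(fold change) was −0.33 in *mut-16* mutants and −1.60 in wild-type (interaction adjusted p = 0.00472). *dpy-7*, *dpy-9* and *dpy-10* also fell further in wild-type (interaction adjusted p = 0.0474, 0.0188 and 0.0413), while *dpy-3* (−0.84) and *dpy-8* (−0.97) had no interaction past the threshold. The median of the 6 was −0.33 in *mut-16* mutants and −1.39 in wild-type. Lost were the adjusted p of *dpy-10* without either wild-type library at 25ºC (adjusted p between 0.0527 and 0.055) and of *dpy-9* without any of the 4 wild-type libraries (between 0.0636 and 0.103). Among 12 tested genes of collagen processing, *bli-5*, a Kunitz-type protease inhibitor of the cuticle, was the member that was called (1.72).

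Genes of moulting and of the apical extracellular matrix, the precuticle that shapes a new cuticle before collagens are laid down, were lower at 25ºC more often than higher. Of the 33 tested, 3 (9.09%) were up-regulated and 6 (18.2%) were down-regulated, beside 4.71% and 1.97% of all genes. The median was −0.25. *fbn-1*, a fibrillin-like matrix protein, had 47.8 and 63.9 CPM in *mut-16* mutants and 10.6 and 13.1 CPM in wild-type at 25ºC, against 76.7 and 120.5 CPM in *mut-16* mutants and 38.5 and 40.8 CPM in wild-type at 20ºC. Within each genotype its 25ºC libraries were below its 20ºC libraries, while between genotypes the groups overlapped, and its log2(fold change) of −1.24 ± 0.206 (standard error, edgeR adjusted p = 0.00149) was the largest decrease in the list. The other members that fell were *mlt-11* (−1.14), *sym-1* (−1.09), *let-653* (−1.08), *lpr-3* (−1.07) and *noah-1* (−1.005), named after their values were seen. They encode a protease inhibitor of the moult, a leucine-rich repeat protein, a zona pellucida protein, a lipocalin and a zona pellucida protein of the apical matrix. The decrease was larger in wild-type for *sym-1*, *let-653* and *lpr-3* (interaction adjusted p = 0.0488, 0.0209 and 0.0422). The count of 6 was 1 in *mut-16* libraries alone and 2 without wild-type 20ºC replicate 1 or without wild-type 25ºC replicate 1. The 3 members that rose were *cut-2*, a cuticlin (1.73), *nas-36*, an astacin protease required for ecdysis (1.32), and *ptr-23*, a patched-related protein (1.19).

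Of 22 genes that time the moults and the larval stages, none was called. Without the threshold on the fold 1 was higher and 5 were lower, beside 10.4% and 6.86% of all genes. The most abundant, *let-70* (0.12), *lin-42* (−0.41), *myrf-1* (−0.61) and *dre-1* (0.05), included a single member past the adjusted p of 0.05, the moult-cycle transcription factor *myrf-1* (adjusted p = 0.00598), while *lin-42*, the period homolog, passed without *mut-16* 20ºC replicate 1 (−0.51, adjusted p = 0.0332). Named after their values were seen, *bed-3* was higher (0.57, adjusted p = 0.00518) and *mab-10*, a cofactor of LIN-29 in the change from larva to adult, was lower (−0.71, adjusted p = 0.00416). The values of *grh-1* (−0.49), *hbl-1* (−0.58) and *lin-29* (−0.60) passed the test by little and lost it in between 4 and 6 of the 8 fits that left out 1 library, with adjusted p between 0.0625 and 0.119. These fits were, for *grh-1*, those without wild-type 20ºC replicate 1, either wild-type library at 25ºC, *mut-16* 20ºC replicate 2 or *mut-16* 25ºC replicate 1, for *hbl-1* those without wild-type 25ºC replicate 1, *mut-16* 20ºC replicate 2 or either *mut-16* library at 25ºC, and for *lin-29* all but those without wild-type 20ºC replicate 1 or *mut-16* 20ºC replicate 1. Hedgehog-related genes, which encode secreted proteins expressed widely in worm epidermis, moved both ways. Of the 42 tested of 61, 10 (23.8%) were up-regulated and 3 (7.14%) were down-regulated, beside 4.71% and 1.97% of all genes. The median was −0.03. *grd-14* had 122 and 128 CPM in *mut-16* mutants and 253 and 205 CPM in wild-type at 25ºC, against 36.5 and 33 CPM in *mut-16* mutants and 61.4 and 54 CPM in wild-type at 20ºC. Its 25ºC libraries all lay above its 20ºC libraries (log2(fold change) 1.92, adjusted p = 5.14e-07). *grl-27* rose by 3.17 and *grl-4* by 1.83, the increase of *grl-4* being 1.04 in *mut-16* mutants and 2.70 in wild-type (interaction adjusted p = 0.00343). The 3 that fell were *grl-12* (−1.29), *grd-3* (−1.11) and *wrt-10* (−1.01).

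**Figure D3:**
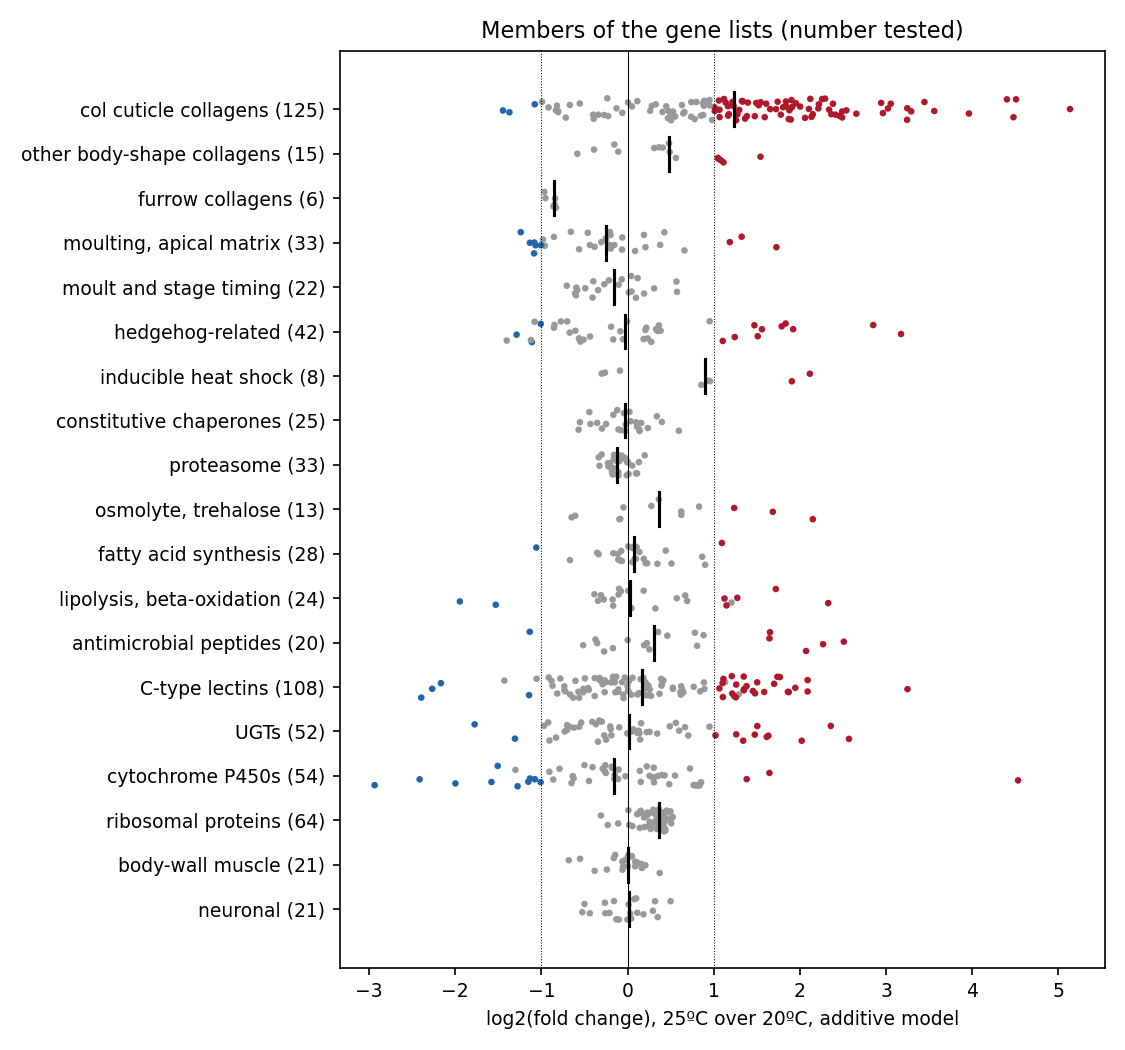
Log2(fold change) at 25ºC over 20ºC of every tested member of 19 gene lists (numbers tested in parentheses), with called members in red (up-regulated) or blue (down-regulated), the median as a black bar and the thresholds of −1 and 1 dotted. The *col* collagens are shifted to a median of 1.23 and the furrow collagens to −0.85, while constitutive chaperones, neuronal and muscle genes lie around 0.

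Inducible heat shock genes encode the HSP-16 small heat shock proteins, which hold unfolded proteins, and inducible Hsp70 proteins, which refold them. Of the 8 tested, 2 (25%) were up-regulated in the additive model, beside 4.71% of all genes, and none was down-regulated, with a median of 0.89. *hsp-16.41* (chromosome V from 1805178 to 1805875) had 17.7 and 15.9 CPM in *mut-16* mutants and 11.1 and 7.78 CPM in wild-type at 25ºC, against 4.67 and 4.15 CPM in *mut-16* mutants and 1.53 and 2.13 CPM in wild-type at 20ºC. All its 25ºC libraries were above its 20ºC libraries, and it rose 4.33-fold, a log2(fold change) of 2.12 ± 0.188 (standard error, edgeR adjusted p = 1.29e-05). Its neighbour *hsp-16.2* rose 3.75-fold (1.91, adjusted p = 8.79e-06), with at most 17.9 CPM in any library. *hsp-16.1* and *hsp-16.48* passed the test without reaching the threshold on the fold (0.96 and 0.93, adjusted p = 0.00157 and 0.00287). *hsp-16.11* had a log2(fold change) of 0.86 that did not pass (adjusted p = 0.270), while without wild-type 25ºC replicate 2 it passed at 1.32 (adjusted p = 0.00567). The near-identical copies *hsp-16.1* and *hsp-16.11* had estimated counts that were not whole in all 8 libraries, so their separate values are uncertain.

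The Hsp70 genes of this list did not share a temperature effect. *F44E5.4* (chromosome II from 11757107 to 11759311) had 13 and 14.4 CPM in *mut-16* mutants and 41.5 and 35.4 CPM in wild-type at 25ºC, against 32.7 and 45.5 CPM in *mut-16* mutants and 17.4 and 23.7 CPM in wild-type at 20ºC. At 25ºC the *mut-16* libraries were the lowest of all 8 and the wild-type libraries lay above wild-type at 20ºC. Its log2(fold change) was −1.53 in *mut-16* mutants and 0.91 in wild-type, and the interaction had an adjusted p of 0.000745. The adjacent *F44E5.5*, a near copy, had −1.15 in *mut-16* mutants and 0.64 in wild-type (interaction adjusted p = 0.0218), and *hsp-70* had −0.79 and 0.63 in the same order (interaction adjusted p = 0.0451). *F44E5.4* and *F44E5.5* had estimated counts that were not whole in all 8 libraries, so reads may have been divided between them. Tested within *mut-16* mutants and within wild-type, both effects passed an adjusted p of 0.05 for *F44E5.4* (0.000169 and 0.00477). For *F44E5.5* the effect in *mut-16* mutants did (0.0112) and that in wild-type did not (0.114). For *hsp-70* neither did (0.0505 and 0.0938). In the additive model the 3 genes, in this order, had −0.30, −0.26 and −0.09, none past the threshold (adjusted p = 0.665, 0.652 and 0.868). The transcript of *hsf-1* itself had a log2(fold change) of 0.14 (adjusted p = 0.571).

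**Figure D4:**
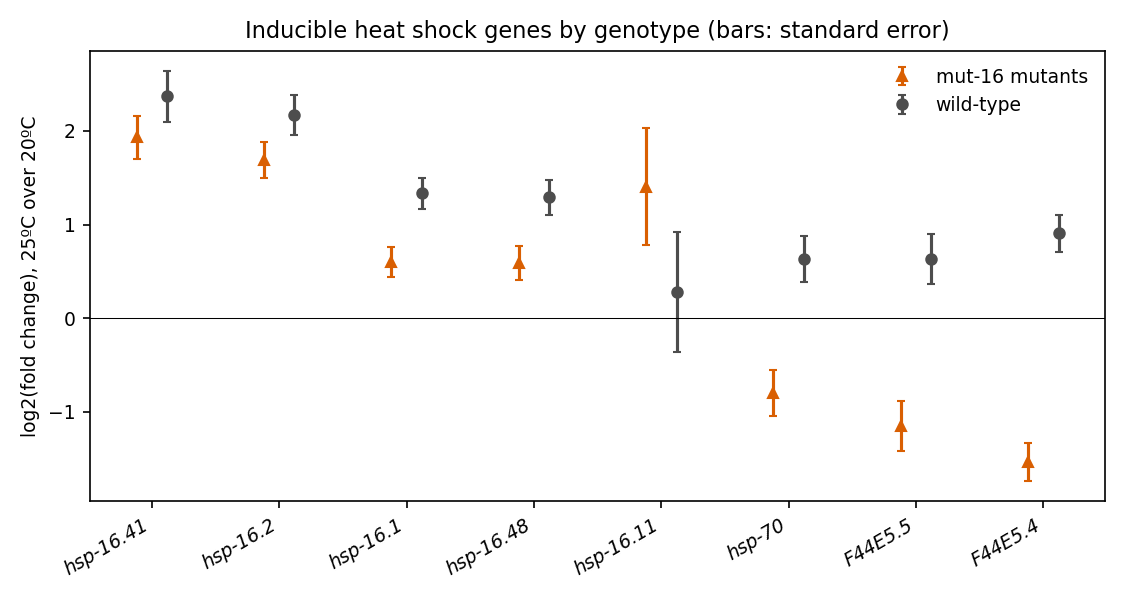
Log2(fold change) at 25ºC over 20ºC of the 8 inducible heat shock genes in *mut-16* mutants (triangles) and in wild-type (circles), with the standard error of the 4-group model as bars. The HSP-16 genes have positive estimates in both genotypes, and *hsp-70*, *F44E5.5* and *F44E5.4* are below 0 in *mut-16* mutants and above 0 in wild-type.

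Among 25 constitutive chaperones, which fold proteins in unstressed cells, none was called. The most abundant were *crt-1*, *hsp-1*, *hsp-90* and *hsp-3*, with 0.34, −0.04, 0.16 and 0.23, and the median of the list was −0.03. Without the threshold on the fold, 3 of the 25 were higher and 4 were lower at 25ºC, beside 10.4% and 6.86% of all genes. The 3 higher members were chaperones of the endoplasmic reticulum, *hsp-4* (0.59, adjusted p = 0.00121), *enpl-1* (0.40, adjusted p = 0.0108) and *crt-1* (adjusted p = 0.0361). The 4 lower members were the mitochondrial chaperones *hsp-60* (−0.55, adjusted p = 0.00720), *hsp-6* (−0.44, 0.0322) and *hsp-75* (−0.35, 0.0484), and the J-domain protein *dnj-13* (−0.57, 0.00312). All but *crt-1* were named after their values were seen. Of the same compartment as the higher members, *hsp-3* and *cnx-1* did not pass (adjusted p = 0.148 and 0.549), *cnx-1* also being named after its value was seen. *hsp-4*, *hsp-60* and *dnj-13* passed in every fit that left out 1 library. *enpl-1* did not without *mut-16* 25ºC replicate 1 (adjusted p = 0.0547), *hsp-75* passed only without a *mut-16* library at 20ºC, *hsp-6* only without wild-type 20ºC replicate 2 or wild-type 25ºC replicate 1, and *crt-1* only without *mut-16* 20ºC replicate 1, the other fits giving adjusted p between 0.0503 and 0.153. Of 9 tested small heat shock proteins outside the HSP-16 group, 1 (11.1%) was up-regulated and none was down-regulated, beside 4.71% and 1.97% of all genes. The median was −0.18, and 6 of the 9 estimates were negative. By the adjusted p alone 3 were higher and 1 was lower, *hsp-17* (−0.78, adjusted p = 0.0172). The up-regulated member was *sip-1*, a small heat shock protein of reproductive tissue. It had 119 and 133 CPM in *mut-16* mutants and 158 and 185 CPM in wild-type at 25ºC, against 37 and 26.6 CPM in *mut-16* mutants and 76.6 and 41.6 CPM in wild-type at 20ºC, and its log2(fold change) of 1.76 ± 0.190 (standard error, edgeR adjusted p = 5.85e-05) came with no overlap between the temperatures. None of 14 subunits of the chaperonin and prefoldin complexes and none of 33 proteasome subunits was called, with medians of −0.24 and −0.12.

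Fatty acid genes included members that moved in opposite directions. The delta-9 desaturases make monounsaturated fatty acids, and membrane desaturation in the worm is lowered at warm temperatures, a regulation known for *fat-7*. *fat-7* had 61.5 and 62 CPM in *mut-16* mutants and 113 and 114 CPM in wild-type at 25ºC, against 122 and 124 CPM in *mut-16* mutants and 225 and 272 CPM in wild-type at 20ºC. It fell in both genotypes, with a log2(fold change) of −1.06 ± 0.0978 (standard error, edgeR adjusted p = 1.81e-05) and a larger difference between the temperatures than between replicates. *fat-5*, a palmitoyl-CoA desaturase, had 117 and 112.2 CPM in *mut-16* mutants and 252 and 259.8 CPM in wild-type at 25ºC, against 51.1 and 59 CPM in *mut-16* mutants and 111 and 123 CPM in wild-type at 20ºC. It rose 2.14-fold, a log2(fold change) of 1.09 ± 0.0960 (standard error, edgeR adjusted p = 1.20e-05), and within each genotype its 25ºC libraries were about as far above the 20ºC libraries as those of *fat-7* were below. These were the 2 called genes of the 28 tested in fatty acid synthesis and desaturation, 3.57% each way, beside 4.71% and 1.97% of all genes. By the adjusted p alone, and with *fat-5* and *fat-7* counted, 4 were higher and 2 were lower, beside 10.4% and 6.86% of all genes. Without the threshold on the fold, *elo-9* (0.90), *fat-2* (0.87) and *fat-3* (0.51), an elongase and the enzymes that start polyunsaturated synthesis, were higher, and *fasn-1*, the fatty acid synthase, was lower (−0.67, adjusted p = 0.00889), all 4 named after their values were seen. The call of *fat-3* was lost without wild-type 20ºC replicate 1 or either wild-type library at 25ºC (adjusted p between 0.0549 and 0.0622). The median of the list was 0.07, and −0.10 with total-count scaling, which moved all genes by −0.159.

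Lipases and enzymes of beta-oxidation, which free fatty acids and break them down, also moved both ways. Of the 24 tested, 5 (20.8%) were up-regulated and 2 (8.33%) were down-regulated, beside 4.71% and 1.97% of all genes. *lipl-2*, a lysosomal lipase, had 19.8 and 16.6 CPM in *mut-16* mutants and 38.1 and 44.9 CPM in wild-type at 25ºC, against 5.46 and 5.02 CPM in *mut-16* mutants and 4.9 and 6.93 CPM in wild-type at 20ºC. It rose 5.02-fold with no overlap between the temperatures (adjusted p = 1.50e-05). The lysosomal lipases *lipl-1* (1.72), *lipl-3* (1.12) and *lipl-5* (1.15) and the hydroxyacyl-CoA dehydrogenase *hacd-1* (1.27) rose too, the last 3 being named after their values were seen. *acox-1.2*, an acyl-CoA oxidase, had 83.5 and 95.3 CPM in *mut-16* mutants and 68.5 and 70.6 CPM in wild-type at 25ºC, against 233 and 217 CPM in *mut-16* mutants and 207 and 256 CPM in wild-type at 20ºC. It fell in both genotypes without overlap, with a log2(fold change) of −1.53 ± 0.120 (standard error, edgeR adjusted p = 4.54e-06), and *acdh-2*, an acyl-CoA dehydrogenase, fell too (−1.95, adjusted p = 4.40e-05).

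Genes of osmolyte and trehalose metabolism make glycerol and trehalose or carry inositol. Of 13, 3 (23.1%) were up-regulated and none was down-regulated, beside 4.71% and 1.97% of all genes, with a median of 0.36. *gpdh-1*, the glycerol-3-phosphate dehydrogenase induced by osmotic stress, had 34.6 and 32.2 CPM in *mut-16* mutants and 40.2 and 36.1 CPM in wild-type at 25ºC, against 8.25 and 8 CPM in *mut-16* mutants and 7.27 and 8.7 CPM in wild-type at 20ºC. The replicates were close, the temperatures did not overlap and the genotypes did not differ in the increase of 4.44-fold beyond the threshold (adjusted p = 5.09e-07, interaction adjusted p = 0.651). *hmit-1.1*, a proton-coupled myo-inositol transporter, rose 3.22-fold (adjusted p = 4.71e-06) and *tre-5*, a trehalase, 2.36-fold (adjusted p = 0.00930) from at most 2.53 CPM at 20ºC.

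Antimicrobial peptides and lysozymes, secreted or stored for defence against microbes, included members that rose and members that fell. Of 35 antimicrobial peptides and epidermal response genes 20 could be tested, of which 5 (25.0%) were up-regulated and 1 (5%) was down-regulated, beside 4.71% and 1.97% of all genes, with a median of 0.30. *irg-5*, an infection response gene controlled by the p38 kinase pathway, had 1283 and 1144 CPM in *mut-16* mutants and 519.9 and 482 CPM in wild-type at 25ºC, against 223 and 202 CPM in *mut-16* mutants and 79.1 and 97.9 CPM in wild-type at 20ºC. It was higher in *mut-16* mutants than in wild-type at each temperature and rose in both, by 2.52 in *mut-16* mutants and 2.50 in wild-type on the log2 scale (additive adjusted p = 1.17e-07, interaction adjusted p = 0.979). The epidermal antimicrobial peptides *nlp-34* (2.27) and *nlp-25* (2.07), the caenacin *cnc-4* (1.65) and *sysm-1* (1.65) rose, and *nlp-24* fell (−1.14). In the 20ºC libraries *sysm-1* had between 3 and 9 expected counts and *nlp-25* between 7 and 23. *cnc-4* and *nlp-24* were named after their values were seen. Among 31 tested of 45 lysozymes and saposin-like proteins, 6 (19.4%) were up-regulated and 2 (6.45%) were down-regulated, with a median of 0.08, which was 0.09 in *mut-16* mutants and −0.16 in wild-type. The invertebrate-type lysozyme *ilys-2* rose by 4.38, with between 1 and 5 expected counts in the 20ºC libraries. *ilys-3* rose by 3.41, with 0.85 in *mut-16* mutants and 4.68 in wild-type (interaction adjusted p = 0.02). *lys-7* rose by 1.97 and *spp-31* by 1.76, and the saposins *spp-4* (−1.07) and *spp-23* (−1.42) were the members that fell, named after their values were seen.

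C-type lectins are secreted sugar-binding proteins that include many infection response genes. Of 108 tested of 260, 26 (24.1%) were up-regulated and 4 (3.70%) were down-regulated, beside 4.71% and 1.97% of all genes. The median was 0.17. The up-regulated count was 27 in *mut-16* libraries alone and 14 in wild-type libraries alone, and 13 where at least 10 counts in every library were required. *clec-229* rose by 3.25, with 5.48 in *mut-16* mutants and 2.56 in wild-type (interaction adjusted p = 0.042) and at most 18 expected counts in a 20ºC library. *clec-160* had 8.84 and 9.01 CPM in *mut-16* mutants and 7.64 and 6.72 CPM in wild-type at 25ºC, against 36.1 and 39.1 CPM in *mut-16* mutants and 37.4 and 42.5 CPM in wild-type at 20ºC. It fell to similar levels in both genotypes (log2(fold change) −2.27, adjusted p = 5.14e-07). *clec-258* fell as well (−2.17), while *clec-45* (−2.40) had at most 16 expected counts in a 20ºC library, and the remaining member that fell was *clec-169* (−1.14). Of 23 tested of 44 genes of the *pals* family and the intracellular pathogen response, 3 were up-regulated and none was down-regulated. These were *pals-14* (2.82), *pals-6* (2.33) and *pals-2*, and *pals-14* and *pals-2* had at most 6 expected counts in any 20ºC library.

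The enzyme families of detoxification moved in both directions. UDP-glucuronosyltransferases, which attach sugars to foreign and internal molecules, had 10 up-regulated (19.2%) and 2 down-regulated members (3.85%) of 52 tested of 67. Their median was 0.02, and the shares over all genes were 4.71% and 1.97%. *ugt-62* had 65.6 and 66 CPM in *mut-16* mutants and 66.3 and 59.4 CPM in wild-type at 25ºC, against 227 and 2e+02 CPM in *mut-16* mutants and 218 and 236 CPM in wild-type at 20ºC. It fell 3.42-fold with close replicates and no overlap (adjusted p = 5.09e-07), and *ugt-61* fell as well (−1.31). *ugt-4* and *ugt-14* rose by 2.57 and 2.36 from at most 6 expected counts in any 20ºC library, and *ugt-66* rose by 2.81 in *mut-16* mutants and 1.34 in wild-type (interaction adjusted p = 0.0221). Cytochrome P450 enzymes, which oxidize such molecules, had 3 up-regulated (5.56%) and 10 down-regulated members (18.5%) of 54 tested of 80. Their median was −0.15, and their up-regulated share was near that of all genes. *cyp-37B1* (chromosome V from 16278116 to 16280616) had the largest increase, the others being *cyp-32A1* (1.65) and *cyp-32B1* (1.38). It had 14.3 and 11.02 CPM in *mut-16* mutants and 53.6 and 62.4 CPM in wild-type at 25ºC, against 1.69 and 0.946 CPM in *mut-16* mutants and 1.68 and 0.977 CPM in wild-type at 20ºC. Its 25ºC libraries all lay far above its 20ºC libraries, and the increase was 3.31 in *mut-16* mutants and 5.41 in wild-type (interaction adjusted p = 0.0253). *cyp-14A4*, *cyp-35D1* and *cyp-14A1* had −2.94, −2.41 and −1.999, all past the test, with between 7 and 61 expected counts in the 20ºC libraries.

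The remaining genes with the largest increases were of other kinds. *trx-3*, an intestinal thioredoxin, had 50.5 and 50.6 CPM in *mut-16* mutants and 105 and 103 CPM in wild-type at 25ºC, against 7.55 and 7.42 CPM in *mut-16* mutants and 12 and 9.95 CPM in wild-type at 20ºC. It rose 8.06-fold, with replicates within a few percent of each other at 25ºC (adjusted p = 1.17e-07). *pud-1.1* rose by 2.72, with 1.56 in *mut-16* mutants and 3.91 in wild-type (interaction adjusted p = 0.000712), and its neighbours *pud-2.1* (2.1), *pud-3* (2.74) and *pud-4* (2.68) on chromosome V rose as well. The *Y68A4A.13* transcript rose by 3.45, by 2.86 in *mut-16* mutants and 4.49 in wild-type (interaction adjusted p = 0.0294).

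Among the down-regulated genes whose log2 CPM averaged 3 or more, *argk-1* had the largest decrease. *argk-1*, an arginine kinase that buffers ATP (chromosome V from 16103894 to 16105952), had 17.5 and 15 CPM in *mut-16* mutants and 7 and 7.16 CPM in wild-type at 25ºC, against 238 and 177 CPM in *mut-16* mutants and 62.5 and 78 CPM in wild-type at 20ºC. It was higher in *mut-16* mutants than in wild-type at each temperature and fell 11.4-fold, a log2(fold change) of −3.51 ± 0.150 (standard error, edgeR adjusted p = 1.17e-07). The nearby *cth-1* (chromosome V from 16100680 to 16102750), a cystathionine gamma-lyase that makes cysteine, had 32.6 and 29.9 CPM in *mut-16* mutants and 31.8 and 26.9 CPM in wild-type at 25ºC, against 189 and 152 CPM in *mut-16* mutants and 71 and 74.5 CPM in wild-type at 20ºC. Its 25ºC libraries were alike in both genotypes and its 20ºC libraries were not, and the log2(fold change) was −2.45 in *mut-16* mutants and −1.31 in wild-type (interaction adjusted p = 0.0117). Also in this stretch of chromosome V, *F22B8.7* (−1.36, named after its values were seen) and the pseudogene *F22B8.4* (−1.63) fell.

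Several hydrolases were also among the 15 largest decreases above this level. *asp-12*, an aspartyl protease, had 15.1 and 18 CPM in *mut-16* mutants and 12.62 and 15.7 CPM in wild-type at 25ºC, against 109 and 122 CPM in *mut-16* mutants and 93.7 and 88.3 CPM in wild-type at 20ºC. It fell 6.68-fold in a log2(fold change) of −2.74 ± 0.119 (standard error, edgeR adjusted p = 1.17e-07), and its libraries at 25ºC lay far below all those at 20ºC. The aspartyl protease *asp-8* (−1.92), the cathepsin B-like protease *cpr-3* (−1.67) and the acid phosphatase *acp-6* (−2.04) fell too (adjusted p = 5.09e-07, 3.49e-05 and 1.22e-05). *rips-1*, a methyltransferase-like gene linked to the hydrogen sulfide response, had 48.5 and 42.8 CPM in *mut-16* mutants and 41.6 and 38.3 CPM in wild-type at 25ºC, against 200.2 and 166 CPM in *mut-16* mutants and 187 and 199.8 CPM in wild-type at 20ºC. It fell 4.4-fold (adjusted p = 3.95e-07). *Y71G12B.18* had −1.49 in *mut-16* mutants and −4.21 in wild-type (interaction adjusted p = 0.000745), and *BE0003N10.6* (−1.88), *K02E11.5* (−1.77) and *ZK228.4* (−1.73) completed these 15.

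Lists of general cell machinery and of somatic tissues held few called genes. No ribosomal protein gene of 64 was called, but 19 were higher at 25ºC without the threshold on the fold, beside 10.4% of all genes. A positive estimate was found for 61 of 64, beside 6799 of 13972 over all genes. The ribosomal protein genes had a median of 0.37, which was 0.20 in *mut-16* mutants and 0.53 in wild-type. Their summed level was 145000 and 141500 CPM in *mut-16* mutants and 172700 and 163900 CPM in wild-type at 25ºC, against 145900 and 103800 CPM in *mut-16* mutants and 118900 and 124900 CPM in wild-type at 20ºC, so *mut-16* 20ºC replicate 1 stood at the level of its 25ºC counterparts. Core histone genes, whose transcripts mostly lack a poly(A) tail, had 6 up-regulated members of 59 (10.2%), beside 4.71% of all genes. Among them were *his-40* (1.32), *his-38* (1.21) and *his-66* (1.103). The histone list had a median of 0.56 (0.23 in *mut-16* mutants and 0.91 in wild-type), and its near-identical copies can share reads. The largest estimate, that of *his-47* (1.79, adjusted p = 0.0195), did not pass without wild-type 20ºC replicate 1, wild-type 25ºC replicate 1 or either *mut-16* library at 20ºC (adjusted p between 0.0512 and 0.0592). Neuronal genes (median 0.01), body-wall muscle genes (0.00) and Argonautes with *mutator* factors (−0.06) had no called gene among 21, 21 and 39. Of 6 vitellogenin genes, *vit-4* was down-regulated (−1.06, adjusted p = 0.0227), a call that was lost without wild-type 20ºC replicate 1 (adjusted p = 0.0562) or *mut-16* 20ºC replicate 1 (0.0502).

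Sperm and oocyte lists had medians of opposite sign in the genotypes. The 33 tested genes of the major sperm protein family, which form the cytoskeleton of crawling sperm, had medians of −0.96 in *mut-16* mutants and 0.47 in wild-type. An interaction at an adjusted p of at most 0.05 was found for 23 of the 33, beside 3.08% of all genes. The number of interactions over all genes depended on single libraries, as given above. The summed level of the major sperm protein genes was 449.6 and 467.8 CPM in *mut-16* mutants and 2244 and 2633 CPM in wild-type at 25ºC, against 980.1 and 724.1 CPM in *mut-16* mutants and 2012 and 1358 CPM in wild-type at 20ºC. In the additive model the family had no up-regulated and 2 down-regulated genes (6.06%), beside 4.71% and 1.97% of all genes. The 2 were *msp-65* (−1.77) and *msp-51* (−1.21). The median of the family was −0.18, and its near-identical copies can share reads. The 55 other spermatogenesis genes had medians of −0.58 in *mut-16* mutants and 0.32 in wild-type, and no called gene. The 27 oocyte and eggshell genes had medians of 0.98 in *mut-16* mutants and −0.09 in wild-type, with 8 interactions and no called gene. *alg-3* and *alg-4*, the Argonautes of spermatogenesis, had additive log2(fold change) values of −0.24 and −0.23 that did not pass the test (adjusted p = 0.558 and 0.553). *alg-3* was at −0.90 in *mut-16* mutants (adjusted p = 0.0309) and 0.30 in wild-type, and *alg-4* at −0.79 and 0.25 in the same order, with interaction adjusted p of 0.0673 and 0.105. Without wild-type 25ºC replicate 2, *alg-3* did pass (−0.59, adjusted p = 0.0451). Of other germline genes, 2 of 21 mitotic germline and P granule genes and none of 23 meiotic chromosome axis genes had an interaction.

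A total of 12 called genes did not have the same sign in both genotypes. The 5 down-regulated among them, named after their values were seen, were *gmd-2*, *gtnt-8*, *nstp-7*, *K06H6.1* and *C14C6.7*. *gmd-2*, a GDP-mannose dehydratase, had 0.982 and 1.19 CPM in *mut-16* mutants and 0.424 and 0.530 CPM in wild-type at 25ºC, against 0.298 and 0.946 CPM in *mut-16* mutants and 20.1 and 21.3 CPM in wild-type at 20ºC. The wild-type libraries at 20ºC stood far above the other 6, and the log2(fold change) was 0.71 in *mut-16* mutants and −5.40 in wild-type (interaction adjusted p = 0.00032). The estimate in *mut-16* mutants did not pass the test within that genotype (adjusted p = 0.360). Of the 7 up-regulated among them, *meg-1*, which encodes a protein of germ granules, had 3.93 and 4.62 CPM in *mut-16* mutants and 0.636 and 0.353 CPM in wild-type at 25ºC, against 0.199 and 0.145 CPM in *mut-16* mutants and 0.612 and 0.444 CPM in wild-type at 20ºC. Its *mut-16* libraries at 25ºC stood above the other 6, with 4.58 in *mut-16* mutants and −0.14 in wild-type (interaction adjusted p = 0.00692). The estimate in wild-type did not pass the test within that genotype (adjusted p = 0.905). The additive call was lost for *gmd-2* without any wild-type library (adjusted p between 0.0611 and 0.185) and for *meg-1* without any *mut-16* library (between 0.065 and 0.146).

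Counts for other families are to be read beside the 4.71% of all genes that were up-regulated and the 1.97% that were down-regulated. Nuclear hormone receptors had 4 (2.21%) up-regulated and 3 (1.66%) down-regulated members of 181 tested (median 0.05), led by *nhr-127* (2.70) and *nhr-155* (−2.43), and F-box proteins 6 (4.48%) and 4 (2.99%) of 134 (median −0.07). Patched-related genes, which include sterol-sensing proteins of the epidermis, had 3 up-regulated (12.5%) and 1 down-regulated member (4.17%) of 24 (median 0.31), namely *ptr-3* (1.32), *ptr-20* (1.24), *ptr-23* (1.19) and *ptr-10* (−1.06). Of 27 targets of DAF-16 and oxidative stress, *dod-3* (2.25), *mtl-1* (2.13) and *nnt-1* (1.05) rose (11.1%) and none fell (median 0.06), *mtl-1* being a metallothionein of the intestine. Insulin-like peptides had 9 of 40 genes tested, with *ins-31* (1.69) and *ins-12* (1.59) up-regulated (22.2%) and *ins-35* (−1.50) down-regulated (11.1%). Glutathione S-transferases had *gst-9* (1.45) and *gst-24* (1.32) up-regulated (6.67%) of 30 tested (median 0.04) and no down-regulated member. None of 31 FMRFamide-like peptide genes, 15 tested genes of thermosensation and dauer signalling, 23 genes of meiotic chromosome axes and synapsis and 12 mitochondrially encoded genes was called, with medians of 0.19, −0.08, −0.06 and −0.38. These genes other than *ptr-23* were named after their values were seen.

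The called genes were spread over all chromosomes, with the highest share on chromosome V, where 7.39% of tested genes were up-regulated and 3.46% were down-regulated, and the lowest on chromosome III for up-regulated (2.74%) and chromosome I for down-regulated genes (0.814%). Runs of at least 3 neighbouring tested genes called in the same direction numbered 19. They included *col-92*, *col-93* and *col-94* on chromosome III and *col-144*, *col-145* and *col-10* on chromosome V among the up-regulated genes, and the *nspc-17* to *nspc-20* genes on chromosome X and *rips-1* with *R08E5.1* and *cysl-3* on chromosome V among the down-regulated genes. Neighbouring members of a family can share reads, so a run of related genes is not a count of independent changes.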

How the data were processed

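Poly(A) mRNA-seq libraries were made from whole L4 animals, and 8 libraries in 4 groups of 2 biological replicates were analysed. Per the labels and the paper's methods, the authors trimmed reads with cutadapt and quantified them with Salmon against the WS258 transcriptome, and the deposited expected counts (estimated reads per transcript, summed per gene) were not normalized. Of 46453 names, 46260 (99.6%) matched the Ensembl 115 annotation of WBcel235.

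Expected counts were rounded to whole numbers. Genes passing filterByExpr (minimum count 10, minimum total 15, by group) were kept, so a gene high at a single temperature could pass. Libraries were scaled by TMM factors (0.858 to 1.10) and fitted with edgeR 4.0.16 in R 4.3.3 (quasi-likelihood test, genotype and temperature as additive terms). Adjusted p-values are Benjamini-Hochberg values over 13972 genes. Heat effects within each genotype and the interaction came from a 4-group model. Fold changes are those of the fit, and CPM values use the TMM factors. In simulated counts for the additive comparison (13719 genes), 78.8% of 2-fold and 96.0% of 4-fold changes passed the adjusted p alone. False calls by the adjusted p alone numbered 15. The threshold on the fold was not applied there, so these shares do not give the recovery of called genes. An exact permutation test within genotypes could not go below p = 0.056, so it was not used for single genes.

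The libraries held 9914054 to 13227929 counts, and precision is limited by having 2 replicates per group. Replicates differed by more than sampling noise. Libraries were scaled alternatively by RLE factors or total counts, and DESeq2 1.42.0, other filters, a replicate block, each genotype alone, glmTreat and leaving out each library were tried.

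The comparison and its gene lists were chosen with earlier results of these data known. The named genes were the 15 with the largest increase and the 15 with the largest decrease among called genes whose log2 CPM averaged 3 or more and whose temperatures were apart in each genotype, up to 4 per list by size of change (by level where none was called), and *hsp-16*, *hsp-70*, *hsf-1*, *alg-3*, *alg-4* and *mut-16*. Others were named after their values were seen, where the text says so and for all members that make up a count of 5 or fewer. Promoter sequences were not analysed here.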

Additional observations from a re-analysis of the deposited data

Results flagged for a closer look

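For 26 of the named genes that were screened, the heat effect differed between *mut-16* mutants and wild-type at an adjusted p of at most 0.05. The test was that of the interaction in edgeR's quasi-likelihood model, with Benjamini-Hochberg adjustment over all genes. Genes named only as members of a count or a run were not screened. Among those, *col-92*, *col-93* and *col-144* also had an interaction in this test (adjusted p = 0.0276, 0.0131 and 0.0376). In each pair of values the log2(fold change) at 25ºC over 20ºC in *mut-16* mutants comes before that in wild-type.

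Estimates of opposite sign were found for *F44E5.4* (−1.53 and 0.91, adjusted p = 0.000745), *F44E5.5* (−1.15 and 0.64, 0.0218), *hsp-70* (−0.79 and 0.63, 0.0451), *meg-1* (4.58 and −0.14, 0.00692), *gmd-2* (0.71 and −5.40, 0.00032), *gtnt-8* (0.15 and −5.77, 0.00278), *K06H6.1* (0.40 and −4.99, 0.000532) and *nstp-7* (1.28 and −5.57, 0.0488). Of these, only *F44E5.4* passed an adjusted p of 0.05 within each genotype. The *mut-16* estimates of *gmd-2*, *gtnt-8*, *K06H6.1* and *nstp-7* did not pass (0.360, 0.906, 0.609 and 0.588), nor did the wild-type estimate of *meg-1* (0.905). *nstp-7* had at most 0.149 CPM in any *mut-16* library.

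Smaller decreases in *mut-16* mutants were found for *dpy-2* (adjusted p = 0.00472), *dpy-7* (0.0474), *dpy-9* (0.0188), *dpy-10* (0.0413), *col-132* (0.0322), *col-149* (0.000745), *sym-1* (0.0488), *let-653* (0.0209), *lpr-3* (0.0422) and *Y71G12B.18* (0.000745). All but the last come from the lists of the cuticle or the apical matrix. Many screened genes were named from those lists, several after their values were seen, so this share reflects the choice of genes. Smaller increases in *mut-16* mutants were found for *cyp-37B1* (adjusted p = 0.0253), *Y68A4A.13* (0.0294), *pud-1.1* (0.000712), *grl-4* (0.00343) and *ilys-3* (0.02). The change was larger in *mut-16* mutants for *cth-1* (adjusted p = 0.0117), *clec-229* (0.042) and *ugt-66* (0.0221).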

How the results depend on the processing

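The counts of called genes, 658 up-regulated and 275 down-regulated, stayed within 1.5 times under DESeq2 (588 and 296), RLE factors (623 and 301), no filter beyond 1 count (821 and 325), the mean of both genotypes in the 4-group model (720 and 358) and *mut-16* libraries alone (677 and 347). Requiring at least 10 counts in every library gave 412 and 160, glmTreat against a log2(fold change) of 1 gave 200 and 38, and the adjusted p alone gave 1455 and 958. Total-count scaling gave 523 up-regulated and 479 down-regulated genes, and wild-type libraries alone gave 621 and 492. Leaving out each library in turn gave between 585 and 683 up-regulated and between 206 and 319 down-regulated genes.

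The 431 genes with an interaction became 511 with DESeq2, 656 with total-count scaling, 1211 with no filter beyond 1 count and 391 with at least 10 counts in every library. Leaving out 1 library gave between 124 and 1093, with 1093 without wild-type 20ºC replicate 1, 477 without wild-type 20ºC replicate 2, 236 without either wild-type library at 25ºC, 246 and 182 without *mut-16* 20ºC replicates 1 and 2, and 124 and 126 without *mut-16* 25ºC replicates 1 and 2. The cause was not tested.

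Replicate numbers did not pair the samples, since deviations of same-numbered libraries correlated between −0.236 and 0.181. With the replicate block, 641 genes were up-regulated, 259 were down-regulated and 316 had an interaction.

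Of 33 list medians, those that turned sign by more than the spread between replicates were those of fatty acid genes (−0.097 with total-count scaling, which moved all genes by −0.159, and −0.060 in *mut-16* libraries alone), cytochrome P450 genes (0.052 with at least 10 counts in every library and 0.061 in *mut-16* libraries alone), *pals* genes (between −0.0018 and 0.34 with a library left out, the lowest without wild-type 20ºC replicate 1) and oocyte genes (−0.097 in wild-type libraries alone). A further 13 medians, among them those of sperm and neuronal genes, turned sign in at least 1 fit, from values nearer to 0 than that spread or by less than it. Among the genes that turned sign were *F44E5.4* (0.89 in wild-type alone), *gmd-2* (0.69 in *mut-16* alone) and *K06H6.1* (0.39 in *mut-16* alone). They were not the only ones. In the 4-group model *hsp-70* (0.63 in wild-type), *F44E5.5* (0.64 in wild-type), *alg-3* (0.30 in wild-type) and *gtnt-8* (0.15 in *mut-16* mutants), for example, also had the sign opposite to their additive value. For the named genes, 1092 of the fits with a library left out kept the call or its absence, 73 lost the call and 3 gained it. The direction was not kept in all of these fits. *F44E5.4* moved from −0.30 to between 0.010 and 0.072 without *mut-16* 20ºC replicate 2 or either *mut-16* library at 25ºC. Genes at low counts at 20ºC are limited by depth.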

Other observations

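The following gene families had 4 or more called members and were not described as families in the report, though single members such as *nas-36* belong to its lists. They were picked from these values after the fit, so they are descriptions. The *nspc* family, short nematode-specific peptides, had 10 down-regulated and no up-regulated members of 15 tested, with a median log2(fold change) of −1.36. Of 24 *nas* genes, which encode astacin metalloproteases, 7 were up-regulated and none was down-regulated, with a median of 0.82. The *pud* genes had 4 up-regulated members of 5 (median 2.68) and the *lips* lipase genes 4 of 10 (median 0.66). The *gtnt* family had 2 up-regulated and 9 down-regulated members of 30 (median −0.32). Up-regulated and down-regulated members numbered 6 and 1 of 15 for *dbd* (median 0.53), 5 and 3 of 60 for *nlp* (0.05) and 5 and 0 of 28 for *oac* (0.03). They numbered 4 and 0 of 14 for *try* (0.07), 4 and 0 of 63 for *nssp* (0.24) and 4 and 0 of 51 for *tag* (0.02). Over all genes tested, 4.71% were up-regulated and 1.97% were down-regulated, and members of a family can share reads.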
